A study of Mus musculus with 6 samples.

Results

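Type I interferon-stimulated genes are the transcripts that cells switch on when interferon alpha or beta binds its receptor, and 42 of them were followed in mouse liver among the 30889 genes of the deposited table. The members were given as a list of gene names covering nucleic acid sensors, transcription factors, antiviral effectors and 1 chemokine, with the GBP and IRG families of GTPases left out. All 42 names matched 1 row each. The libraries came from liver of mice treated by mouth for 14 days with a water extract of the herb Emilia sonchifolia (extract, 3 libraries) or with phosphate buffered saline (control, 3 libraries). Strain, genotype, sex, age, dose and the number of animals per library are not given in the labels, so the p-values rest on the spread between libraries that may or may not be separate animals.

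In the textbook pathway, RNA helicases and other sensors detect foreign nucleic acid and start interferon production. Interferon then acts through the kinases JAK1 and TYK2 on STAT proteins, which join IRF9 in a complex that binds the interferon-stimulated response element in target promoters. The targets include the sensors and factors of the pathway itself, so the system feeds back on its own parts. Most liver cell types can respond, hepatocytes, Kupffer cells (the resident macrophages) and endothelium among them. In bulk tissue, a change in the number of cells of a type and a change in RNA per cell cannot be told apart.

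Most of these transcripts were higher with the extract. Of the 42 genes, 31 rose, 2 fell and 9 did not pass the test (edgeR quasi-likelihood test on the deposited counts, Benjamini-Hochberg adjusted p under 0.05 over 18071 genes). That is 73.8% called higher, where 14.2% of all genes tested were called higher and 12.8% lower. The median log2 fold change, extract over control, was 0.63 over the members and -0.02 over all genes tested. A log2 fold change of at least 1 was reached by 7 called members, Ifit1, Isg15, Ifi44, Zbp1, Ifih1, Ifit3b and Herc6, and by 1.95% of all genes tested as called rises. The 90th percentile of all genes tested stood at 0.56, and 23 of the 42 members lay above it. All members passed the filter on low counts, the lowest count of any member in any library being 140.

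**Figure D1:**
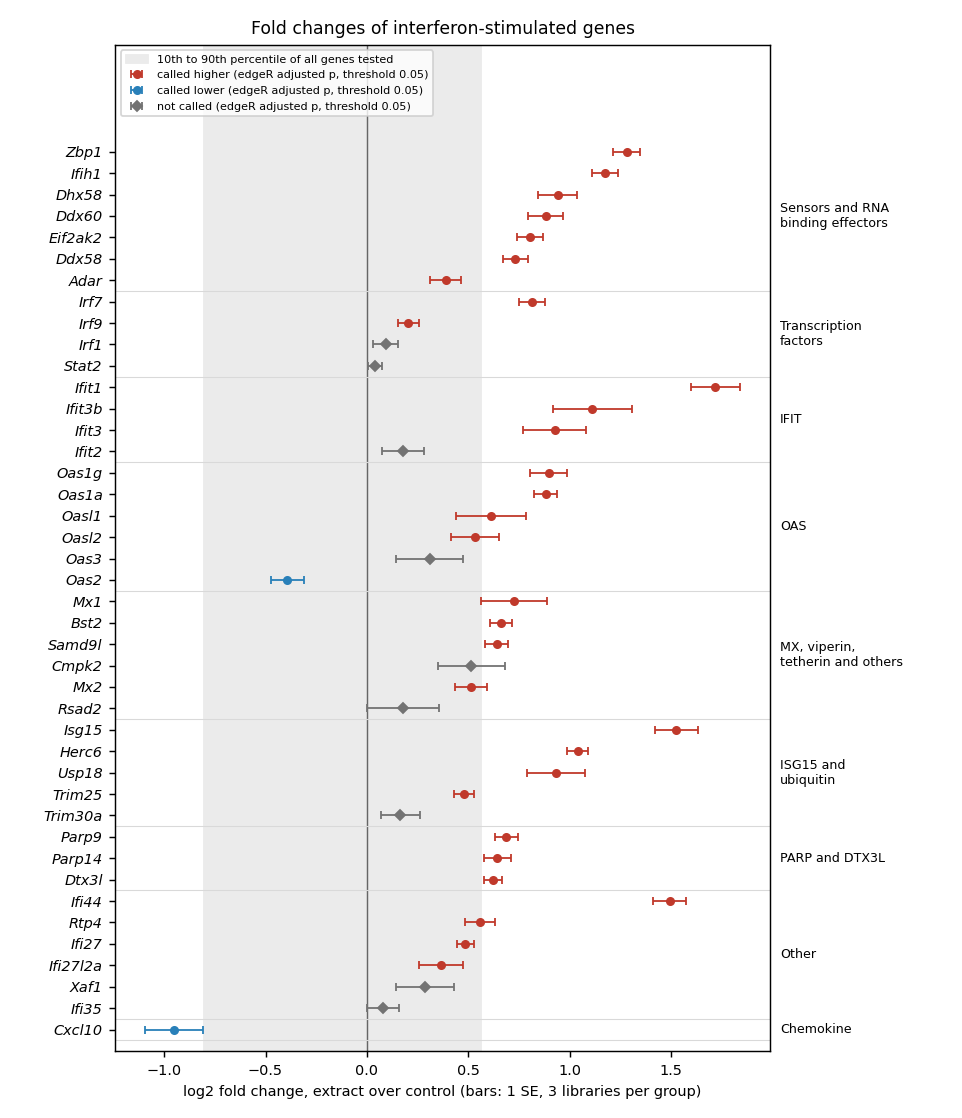
Log2 fold change of each of the 42 genes, extract over control, with bars of 1 SE (edgeR, 3 libraries per group), in groups by role. Points to the right of 0 are higher in extract libraries; the grey band spans the 10th to 90th percentile of all genes tested, and Cxcl10 (-0.95) and Oas2 (-0.39) are the 2 genes called lower. The small positive value of Stat2 (0.04, not called) turns to -0.02 with limma on FPKM.

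The separation between the groups was read in FPKM, fragments per kilobase of gene scaled to the mapped fragments of the library, which allows levels of different genes to be set side by side. For 32 of the 42 genes (76.2%) every extract library was above every control library, against 17.7% of all genes tested. For Cxcl10 and Oas2 every extract library was below every control library, against 26.9% of all genes tested. The other 8 overlapped. The FPKM were compared as deposited, without rescaling. Over all genes they summed to 331828 to 339695 in extract libraries, against 346373 to 354060 in control libraries. Summed over the 42 genes, the level was 616, 634 and 663 FPKM in extract libraries, against 434, 442 and 397 FPKM in control libraries. Total deposited counts per library ran from 52941399 to 56603387 in extract and from 51219533 to 61432016 in control.

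**Figure D2:**
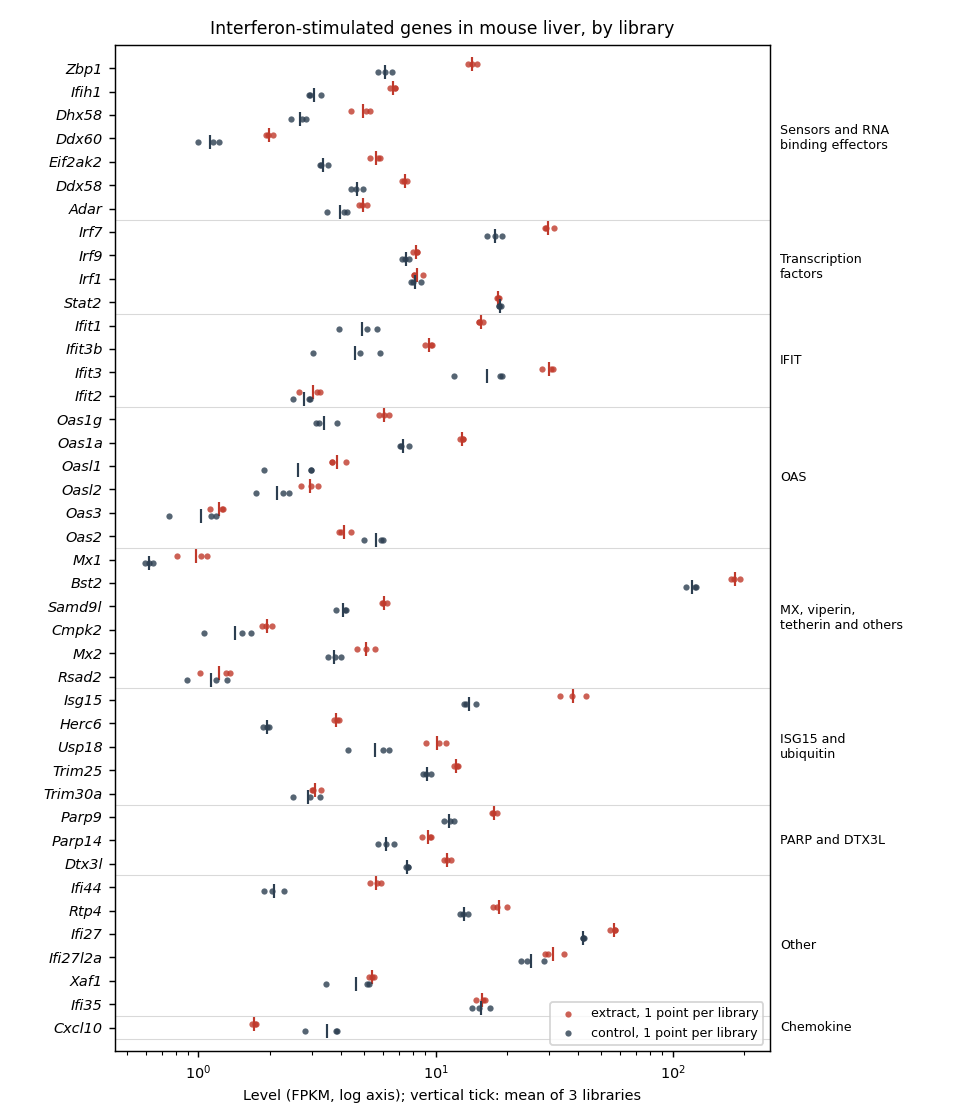
Level in FPKM (log axis) of the 42 genes in each of the 3 extract and 3 control libraries, 1 point per library with a vertical tick at the group mean, in groups by role. The points of the groups do not overlap for 34 genes, and the levels span from Mx1 (mean 0.977 FPKM in extract and 0.617 FPKM in control) to Bst2 (183 FPKM in extract and 121 FPKM in control).

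The promoters of the members were searched for the response element through which the complex with IRF9 acts in the textbook pathway. RefSeq promoter windows (GRCm38.p6), from 250 bases before to 50 bases after the annotated start site, were available for 31 of the 42 genes. The core of the interferon-stimulated response element was searched as GAAA, then NN (any bases), then GAAA, so that a match on the other strand reads TTTC, then NN, then TTTC. It was found in 16 of the 31 genes (51.6%), against 3.99% of the 27025 genes in the promoter table. Counted by window, 17 of 37 windows held it (45.9%), against 3.44% of 32851. By call, it was found in 11 of 21 members that rose (52.4%), in 4 of 9 that did not pass (44.4%) and in Cxcl10, the 1 member with a window that fell. The core of the gamma-activated site, TTCNNNGAA, was found in 7 of the 31 genes (22.6%), against 9.55% of all genes in the table. A match describes these letters and shows no binding. Zbp1, Dhx58, Oas2, Mx1, Mx2, Usp18, Ifi27, Ifi27l2a, Rtp4, Parp9 and Parp14 had no window.

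The 250 bases upstream of Isg15 and Ifit1, the members with the largest called rises among those with a window, are shown 5′ to 3′ on the gene's strand, with the response element cores in capitals.
Isg15 (chr4:156200819-156201068, minus strand): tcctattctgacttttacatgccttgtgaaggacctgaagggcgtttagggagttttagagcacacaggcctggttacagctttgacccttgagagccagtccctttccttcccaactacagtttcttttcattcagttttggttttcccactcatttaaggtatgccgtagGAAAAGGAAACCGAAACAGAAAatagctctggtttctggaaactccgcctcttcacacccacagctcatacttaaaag
Ifit1 (chr19:34640639-34640888, plus strand): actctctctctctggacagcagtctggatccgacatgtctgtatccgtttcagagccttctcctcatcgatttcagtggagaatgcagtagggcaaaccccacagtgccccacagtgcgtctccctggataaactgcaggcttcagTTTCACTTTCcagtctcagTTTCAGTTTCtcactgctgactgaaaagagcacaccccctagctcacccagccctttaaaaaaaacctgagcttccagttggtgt
In Isg15 the capitals hold 3 matches that overlap, from -78 to -57 relative to the start site. In Ifit1 they hold 2 matches on the other strand, from -104 to -95 and from -85 to -76.

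Other members that rose carried the core in the following stretches, each shown with 10 bases on either side.
Ifit3 (chr19:34583363-34583392, plus strand): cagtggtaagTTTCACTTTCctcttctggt
Ifit3 (chr19:34583397-34583426, plus strand): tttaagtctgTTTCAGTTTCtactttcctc
Ifit3b (chr19:34607759-34607788, plus strand): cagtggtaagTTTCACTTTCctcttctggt
Ifit3b (chr19:34607793-34607822, plus strand): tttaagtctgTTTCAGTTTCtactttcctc
Oas1a (chr5:120907520-120907555, minus strand): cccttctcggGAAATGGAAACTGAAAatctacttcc
Oas1g (chr5:120887606-120887641, minus strand): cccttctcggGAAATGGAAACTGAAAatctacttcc
Bst2 (chr8:71537577-71537612, minus strand): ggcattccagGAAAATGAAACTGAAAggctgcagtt
Ddx60 (chr8:61928024-61928053, plus strand): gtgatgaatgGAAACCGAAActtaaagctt
Ddx60 (chr8:61928058-61928087, plus strand): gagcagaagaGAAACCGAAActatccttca
The stretches of Ifit3 and Ifit3b were identical letter for letter, as were those of Oas1a and Oas1g. The matches of Oas1a ran from -20 to -5 and those of Ddx60 from -53 to -44 and from -19 to -10.

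Cores also lay at Ddx58, Eif2ak2 and Ifih1, which rose, all after the start site. Members that did not rise and held a core were Oas3, Rsad2, Stat2 and Trim30a, which did not pass the test, and Cxcl10, which fell. The stretches of Oas3, Rsad2 and Cxcl10 are shown for comparison.
Oas3 (chr5:120777715-120777744, minus strand): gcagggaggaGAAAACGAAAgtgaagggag
Rsad2 (chr12:26456553-26456582, minus strand): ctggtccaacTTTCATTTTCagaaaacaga
Cxcl10 (chr5:92349083-92349112, minus strand): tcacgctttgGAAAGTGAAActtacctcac
The core of Oas3 began at -75, that of Rsad2 at -120 and that of Cxcl10 at -213. Over all 31 genes, 26 matches merged into 21 stretches, 17 of them upstream of the start site.

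**Figure D3:**
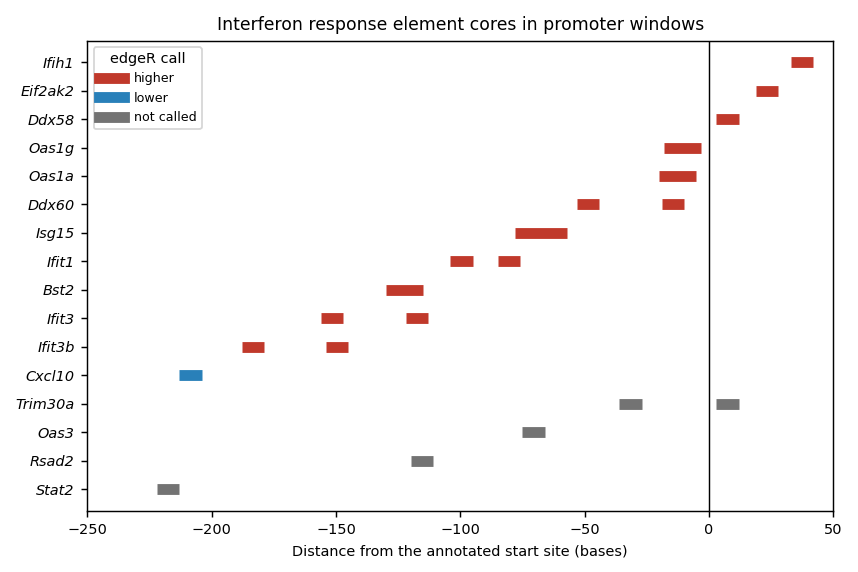
Position of the response element cores in the promoter windows of the 16 members that hold one, as distance in bases from the annotated start site at 0, coloured by the edgeR call. Bars of members that rose lie from -188 to 42. Those of Stat2 (not called, -222 to -213) and Cxcl10 (called lower, -213 to -204) lie farther upstream, and those of Oas3, Rsad2 and Trim30a (not called) lie within that range.

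All 7 sensors and RNA-binding effectors rose, with a median log2 fold change of 0.88. The shares of all genes tested, 14.2% called higher and 12.8% lower, stand beside this count and those of each role below. Zbp1, which senses nucleic acid in the Z conformation and can trigger necroptosis, had 13.6, 14.2 and 14.9 FPKM in extract libraries, against 6.52, 6.14 and 5.70 FPKM in control libraries. Its log2 fold change of 1.28 ± 0.07 (SE, adjusted p = 1.57e-05 in edgeR) was the largest of the sensors. Ifih1, which encodes the helicase MDA5, a sensor of long RNA duplexes, had 6.39, 6.72 and 6.76 FPKM in extract libraries, against 3.29, 2.93 and 2.96 FPKM in control libraries, a 2.26-fold rise (edgeR adjusted p = 1.92e-05). Ddx58, which encodes the related helicase RIG-I, rose 1.66-fold, to 7.41 ± 0.18 FPKM in extract libraries, against 4.65 ± 0.26 FPKM in control libraries (SD, n = 3). Dhx58, whose product LGP2 modulates both helicases, rose 1.92-fold. Ddx60, a helicase reported to act with RIG-I, rose 1.84-fold from a low level, with 1.98 ± 0.06 FPKM in extract libraries and 1.12 ± 0.12 FPKM in control libraries (SD, n = 3).

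Eif2ak2, the kinase PKR that halts translation on binding RNA duplexes, had 5.71, 5.84 and 5.28 FPKM in extract libraries, against 3.52, 3.27 and 3.26 FPKM in control libraries (1.74-fold, edgeR adjusted p = 9.73e-05). Adar, the adenosine deaminase that edits RNA duplexes and restrains MDA5, had the smallest rise of the sensors, 1.31-fold. Its levels were 4.74, 4.91 and 5.13 FPKM in extract libraries, against 4.10, 4.22 and 3.48 FPKM in control libraries. All 7 sensors were higher in each extract library than in any control library, against 17.7% of all genes tested.

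The transcription factors moved less evenly, with 2 of 4 rising and 0 falling. Irf7, the factor that amplifies interferon alpha production, had 29.0, 29.3 and 31.4 FPKM in extract libraries, against 17.8, 19.1 and 16.4 FPKM in control libraries. On the log2 scale the difference was 0.81 ± 0.06 (SE, adjusted p = 8.85e-05 in edgeR). Irf9, the DNA-binding part of the complex that reads the response element, rose 1.15-fold, with 8.25 ± 0.21 FPKM in extract libraries and 7.47 ± 0.26 FPKM in control libraries (SD, n = 3). The Irf9 call (edgeR adjusted p = 0.0256) was lost under 6 of 15 alternatives, with adjusted p from 0.016 to 0.0939. They include leaving out extract 1 (0.0552), extract 3 (0.0882) or control 2 (0.0846). Stat2 was level, at 18.3, 18.6 and 18.2 FPKM in extract libraries, against 18.6, 18.9 and 18.5 FPKM in control libraries (edgeR adjusted p = 0.463). Irf1, a factor induced by interferon gamma as well as type I interferon, averaged 8.38 ± 0.43 FPKM in extract libraries and 8.21 ± 0.43 FPKM in control libraries (SD, n = 3, edgeR adjusted p = 0.310).

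Of the 4 IFIT genes, which encode proteins that bind foreign or uncapped RNA and block its translation, 3 rose. Ifit1 had the largest rise of all 42 genes, 3.29-fold, with 15.3, 15.3 and 15.8 FPKM in extract libraries, against 5.15, 5.68 and 3.90 FPKM in control libraries. On the log2 scale the difference was 1.72 ± 0.12 (SE, adjusted p = 6.13e-05 in edgeR). Ifit3 had 28.2, 30.6 and 31.3 FPKM in extract libraries, against 18.6, 19.0 and 11.9 FPKM in control libraries (log2 fold change 0.92, edgeR adjusted p = 0.00388). Ifit3b rose 2.16-fold, with 9.59, 9.02 and 9.63 FPKM in extract libraries, against 4.81, 5.81 and 3.04 FPKM in control libraries. Control 3 was the lowest library for these 3 genes. Ifit3 and Ifit3b shared 51.2% of the 50-base stretches of Ifit3 transcripts in GENCODE M21, so the split of reads between them is uncertain.

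Ifit2 did not pass, with 2.66, 3.25 and 3.17 FPKM in extract libraries, against 2.96, 2.92 and 2.50 FPKM in control libraries (edgeR adjusted p = 0.244). The 4 genes lie side by side on chromosome 19 (34550694 to 34650009, table coordinates, which match GRCm38 for 36 of the 42 genes exactly). The ratio of Ifit1 to Ifit2 in FPKM was 5.73, 4.70 and 5.00 in extract libraries, against 1.74, 1.94 and 1.56 in control libraries. This ratio was chosen after its values were seen, as were 4 others computed with it. Ifit1 differed between the groups by more than Ifit2 varied over all libraries, so the ratio had to separate. An exact two-sided permutation test gave p = 0.1, the smallest that 3 against 3 libraries allow, which was thus fixed beforehand and tests nothing further.

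Among the 6 OAS genes, 4 rose and 1 fell. The active enzymes of this family, the oligoadenylate synthetases, make a second messenger that activates RNase L, which degrades RNA. Oas1g had 6.35, 6.04 and 5.75 FPKM in extract libraries, against 3.21, 3.83 and 3.12 FPKM in control libraries, a 1.86-fold rise. Oas1a had 13.0, 13.0 and 12.7 FPKM in extract libraries, against 7.14, 7.74 and 7.06 FPKM in control libraries (1.84-fold, edgeR adjusted p = 4.40e-05). These 2 genes shared 57.6% of the 50-base stretches of Oas1a transcripts, so their values may hold each other's reads. Oasl1, which in mouse is known to repress Irf7 translation, rose 1.53-fold and Oasl2 1.45-fold. The Oasl1 call (edgeR adjusted p = 0.0329) was lost under 9 of 15 alternatives, with adjusted p from 0.00326 to 0.129, among them leaving out extract 1, 2 or 3 or control 2 (0.0722, 0.0779, 0.105 and 0.0562). With the replicate number as a block it was 0.0686. The Oasl2 call (adjusted p = 0.0128) was lost under 2 alternatives (range 0.00024 to 0.0854), of which 1 left out extract 1 (0.0529).

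Oas2 fell by 0.39 ± 0.08 on the log2 scale (SE, adjusted p = 0.0100 in edgeR). Its levels were 4.39, 4.01 and 3.91 FPKM in extract libraries, against 5.99, 5.90 and 4.98 FPKM in control libraries, with no overlap. Oas3, the largest of the synthetases, did not pass, at 1.22 ± 0.08 FPKM in extract libraries and 1.02 ± 0.23 FPKM in control libraries (SD, n = 3, edgeR adjusted p = 0.208). Oas1a, Oas1g, Oas2 and Oas3 share a locus on chromosome 5 (120730333 to 120907521). There the ratio of Oas1a to Oas2 in FPKM was 2.96, 3.24 and 3.25 in extract libraries, against 1.19, 1.31 and 1.42 in control libraries. This ratio, too, was chosen after its values were seen. Every extract library was above every control library for Oas1a and below for Oas2, so the ratio had to separate. Its exact two-sided permutation p of 0.1, the smallest possible, was thus fixed beforehand and tests nothing further. Oas2 was called lower under all 15 alternatives, with adjusted p from 0.00109 to 0.0493.

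Of 6 effectors that act on viral ribonucleoproteins, nucleotide pools, translation or budding, 4 rose and 0 fell. Mx1, a dynamin-like GTPase against influenza-like viruses, was the lowest of the 42 genes, with 0.814, 1.03 and 1.09 FPKM in extract libraries, against 0.596, 0.640 and 0.615 FPKM in control libraries. It rose 1.65-fold (edgeR adjusted p = 0.0129), and the call was lost without extract 3 (log2 fold change 0.63, adjusted p = 0.0526, the highest of its 15 alternatives, which began at 0.00871). Mx2 rose 1.42-fold. Bst2, the membrane protein tetherin that holds budding virus at the cell surface, was the most abundant member, with 176, 181 and 192 FPKM in extract libraries, against 124, 125 and 113 FPKM in control libraries. It rose 1.58-fold (edgeR adjusted p = 0.000125). Samd9l, which restrains translation, rose 1.56-fold, with 6.05 ± 0.16 FPKM in extract libraries and 4.05 ± 0.22 FPKM in control libraries (SD, n = 3).

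Rsad2, which encodes viperin, an enzyme that makes a chain-terminating nucleotide, did not pass. It had 1.01, 1.36 and 1.30 FPKM in extract libraries, against 1.18, 1.32 and 0.894 FPKM in control libraries (edgeR adjusted p = 0.509). Its neighbour on chromosome 12 (26442746 to 26479837 for the pair), Cmpk2, supplies nucleotides to that reaction. Cmpk2 had 1.93, 1.86 and 2.04 FPKM in extract libraries, against 1.67, 1.53 and 1.06 FPKM in control libraries (log2 fold change 0.51 ± 0.17, SE, edgeR adjusted p = 0.0529). It was called higher with DESeq2 (adjusted p = 0.0200), on counts divided by 4 (0.0427) and without control 1 (0.0296), and over its 15 alternatives the adjusted p ran from 0.02 to 0.157.

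Isg15, the ubiquitin-like protein that is attached to target proteins, and 3 of the 4 other genes of this group rose. Isg15 had 33.4, 37.7 and 42.9 FPKM in extract libraries, against 13.1, 13.4 and 14.8 FPKM in control libraries. On the log2 scale the difference was 1.52 ± 0.11 (SE, adjusted p = 5.88e-05 in edgeR), and it stood at rank 3 of the 42 levels in extract and at rank 8 in control. Herc6 encodes the ligase that attaches ISG15 in mouse. It had 3.83, 3.90 and 3.72 FPKM in extract libraries, against 1.98, 1.95 and 1.87 FPKM in control libraries. Its rise of 2.05-fold had the smallest p of all members (edgeR adjusted p = 1.30e-05). Of the 50-base stretches of Herc6 transcripts, 12.5% also occur in other genes, most of them in an overlapping gene model on the same strand. Usp18, which removes ISG15 and also dampens the interferon receptor, rose 1.91-fold, with 10.2 ± 0.96 FPKM in extract libraries and 5.56 ± 1.12 FPKM in control libraries (SD, n = 3). Trim25, a ubiquitin ligase that acts on the RIG-I pathway, rose 1.39-fold. Trim30a, a TRIM protein of mouse, did not pass, with 3.04, 3.29 and 3.001 FPKM in extract libraries, against 2.94, 3.25 and 2.50 FPKM in control libraries (edgeR adjusted p = 0.251). Transcripts of Isg15, Herc6 and Usp18 were thus all higher in each extract library than in any control library.

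All 3 genes of the PARP group rose by similar factors. Parp9 and Dtx3l encode an ADP-ribosyltransferase and a ubiquitin ligase that work as a complex, and Parp14 is another ADP-ribosyltransferase. Parp9 had 17.2, 17.5 and 18.1 FPKM in extract libraries, against 11.9, 10.9 and 11.5 FPKM in control libraries (1.61-fold, edgeR adjusted p = 0.000110). Dtx3l had 11.2, 11.6 and 10.8 FPKM in extract libraries, against 7.68, 7.50 and 7.62 FPKM in control libraries (1.54-fold, edgeR adjusted p = 6.67e-05). Parp14 rose 1.56-fold. The 3 genes lie together on chromosome 16 (35832874 to 35972605), where Parp9 and Dtx3l are on opposite strands and overlap by 682 bases, so reads of that stretch cannot be assigned without strand.

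In the last group of effectors, 4 of 6 genes rose and 0 fell. Ifi44, a protein induced by interferon and linked to feedback on the pathway, had 5.28, 5.89 and 5.66 FPKM in extract libraries, against 1.89, 2.30 and 2.04 FPKM in control libraries. On the log2 scale the difference was 1.49 ± 0.08 (SE, adjusted p = 1.89e-05 in edgeR). Rtp4, a chaperone of membrane receptors with antiviral activity, rose 1.47-fold, though 11.6% of its 50-base stretches also occur in an overlapping gene model and it overlaps Masp1 on the opposite strand by 525 bases. Ifi27, a small hydrophobic membrane protein, had 54.6, 57.2 and 57.2 FPKM in extract libraries, against 41.9, 41.9 and 42.1 FPKM in control libraries (1.40-fold, edgeR adjusted p = 0.000173). Its neighbour and family member Ifi27l2a rose 1.29-fold (edgeR adjusted p = 0.0418), a call lost under 11 of 15 alternatives, with adjusted p from 0.0236 to 0.17. Leaving out any library but control 2 was enough, the adjusted p then being 0.0775, 0.0590, 0.125, 0.0995 or 0.112 (without extract 1, 2 or 3, or control 1 or 3), and with the replicate number as a block it was 0.0932.

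Xaf1, which binds the apoptosis inhibitor XIAP, and Ifi35, a cytoplasmic partner of NMI, did not pass. Xaf1 had 5.25, 5.51 and 5.40 FPKM in extract libraries, against 5.26, 5.14 and 3.45 FPKM in control libraries, with control 3 alone set apart (edgeR adjusted p = 0.175). Ifi35 had 15.9, 14.8 and 16.2 FPKM in extract libraries, against 14.2, 17.0 and 15.2 FPKM in control libraries (edgeR adjusted p = 0.495).

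The chemokine Cxcl10, which draws T and NK cells through the receptor CXCR3 and is induced by interferon gamma and NF-kappa B as well as by type I interferon, was, with Oas2, 1 of the 2 members that fell. It had 1.69, 1.74 and 1.73 FPKM in extract libraries, against 3.85, 3.81 and 2.80 FPKM in control libraries. It fell by 0.95 ± 0.14 on the log2 scale (SE, adjusted p = 0.00216 in edgeR) and was called lower under all 15 alternatives, with adjusted p from 2.13e-06 to 0.0149. Art3 overlaps the whole span of Cxcl10, 2245 bases, on the opposite strand, so reads there cannot be assigned without strand. Art3 averaged 0.418 FPKM in extract and 0.304 FPKM in control.

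By level, Bst2 and Ifi27 led the order in both groups, followed by Isg15, Ifi27l2a, Ifit3 and Irf7 in extract and by Ifi27l2a, Stat2, Irf7 and Ifit3 in control. Mx1, Oas3, Rsad2 and Cxcl10 closed it in extract, and Mx1, Oas3, Ddx60 and Rsad2 in control. Neighbours in that order often did not differ beyond their spread. Their means were closer than the sum of their SDs for 22 of 41 pairs in extract and for 31 of 41 in control.

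Replicates spread less in extract than in control. The median coefficient of variation of the 42 genes in FPKM was 4.64% in extract and 7.87% in control, against 6.49% in extract and 7.64% in control over 12935 genes with a mean of at least 0.5 FPKM. It was smaller in extract for 33 of the 42 members, against 57.8% of those genes. Control 3 was the lowest control library for 30 of the 42 members, against 38.5% of those genes. The median member stood 0.59, 0.64 and 0.70 above the control mean on the log2 CPM scale in extract 1, 2 and 3. In control 1, 2 and 3 it stood at 0.06, 0.06 and -0.09. Without control 3, 30 members were called higher and 2 lower, with a median log2 fold change of 0.60.

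**Figure D4:**
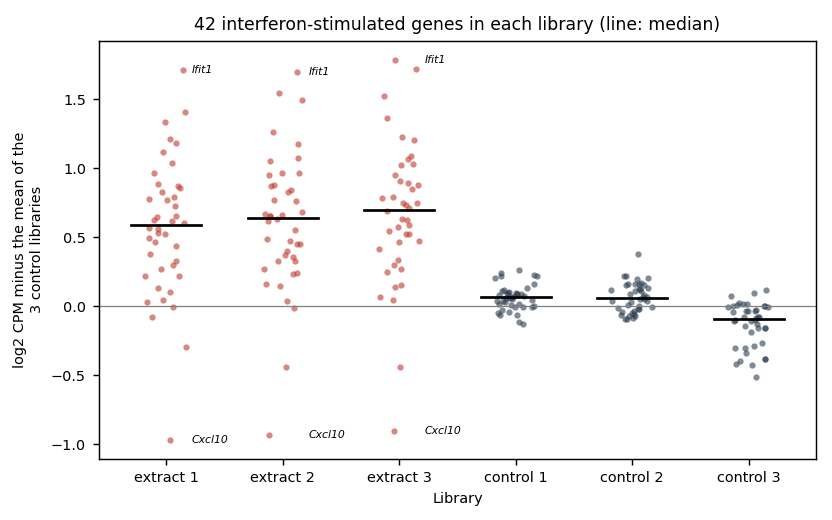
Log2 CPM of each of the 42 genes minus its mean over the 3 control libraries, 1 point per gene and a line at the median, for the 3 extract and 3 control libraries. The medians are 0.59, 0.64 and 0.70 in extract and 0.06, 0.06 and -0.09 in control; Ifit1 is labelled near the top and Cxcl10 at the bottom of each extract library.

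The rest of the pathway was described from lists of further genes. Of 40 other interferon-stimulated genes, 23 rose, 4 fell and 13 did not pass. Over all genes tested, 14.2% were called higher and 12.8% lower, the latter near the share that fell here. The median log2 fold change of the list was 0.33, which is below the members' 0.63. The lower calls numbered 2 without extract 1, extract 2 or control 2 and with the replicate block. The genes of that list with the smallest p were Apol9b, Apol9a, Rnf213 and Slfn9. Apol9b, an apolipoprotein L family gene of mouse, had 124, 124 and 133 FPKM in extract libraries, against 49.9, 52.0 and 51.1 FPKM in control libraries. Its family member Apol9a rose 2.24-fold. Rnf213, a giant ubiquitin ligase, rose 1.81-fold and Slfn9, a schlafen gene, 3.14-fold. Ifi44l, which lies next to Ifi44 on chromosome 3 and was named after its values were seen, went the other way, with 3, 4 and 0 counts in extract libraries and 41, 115 and 111 counts in control libraries (edgeR adjusted p = 0.00184).

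Of 16 receptor and signalling genes upstream of the members, 2 were called higher and 2 lower, shares near those of all genes tested (14.2% higher and 12.8% lower), and the median log2 fold change was 0.01. Higher calls numbered 1 without extract 2, extract 3 or control 2 and with the replicate block, and 3 without control 3. Lower calls numbered 1 without extract 1, extract 2 or any 1 control library, and 3 without extract 3. Jak1, a kinase of the receptor, rose 1.16-fold (edgeR adjusted p = 0.0354). Il10rb, a receptor chain shared with interferon lambda, fell by 0.33 on the log2 scale (edgeR adjusted p = 0.0358) and the phosphatase Ptpn6 fell by 0.36 (edgeR adjusted p = 0.00449). Ifnar1, a chain of the type I receptor, averaged 5.45 ± 0.33 FPKM in extract libraries and 5.17 ± 0.09 FPKM in control libraries (SD, n = 3, edgeR adjusted p = 0.144).

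Of 18 genes of interferon induction and its control, 2 were called higher and 6, Irf2 among them, lower. Over all genes tested, 14.2% were called higher, which is near the share here, and 12.8% lower. The median log2 fold change of the list was -0.16. The lower calls numbered 3 without extract 2, without control 2 or with the replicate block, and 4 without control 1. The higher calls numbered 1 under 11 of the 15 alternatives, among them leaving out any library but control 3. Mavs, the mitochondrial adaptor of RIG-I and MDA5, had 23.2, 22.9 and 23.0 FPKM in extract libraries, against 19.2, 19.4 and 21.0 FPKM in control libraries (1.21-fold, edgeR adjusted p = 0.00608). Irf8, a factor of myeloid and lymphoid cells, fell by 0.88, Myd88, the adaptor of most Toll-like receptors, by 0.46 and Irf2, a repressor of interferon targets, by 0.28 on the log2 scale. Of the interferon genes themselves, values for Ifng and Ifnk were analysed. Ifng, made by T and NK cells, was at 0, 0.103 and 0.116 FPKM in extract libraries, against 0.146, 0.141 and 0.0899 FPKM in control libraries (edgeR adjusted p = 0.658). Ifnk was listed at 0 in all 6 libraries, and interferon alpha and beta genes were not analysed here.

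Markers of immune and endothelial cells were called lower in part or for the most part, depending on the cell type. Of all genes tested, 12.8% were called lower and 14.2% higher. Among 13 markers of Kupffer cells 11 fell, and their summed level was 306 to 321 FPKM in extract libraries, against 508 to 534 FPKM in control libraries. Among 13 markers of monocytes and neutrophils 10 fell, with sums of 27.9 to 37.7 FPKM in extract libraries, against 88.9 to 156 FPKM in control libraries. For T and NK cells 5 of 12 markers fell, with sums of 4.90 to 5.52 FPKM in extract libraries and 8.71 to 10.4 FPKM in control libraries. For B and plasma cells 6 of 8 fell, with sums of 37.2 to 47.0 FPKM in extract libraries and 87.2 to 149 FPKM in control libraries. Igkc made up most of those sums, with a mean of 35.1 FPKM in extract and 101 FPKM in control. Of 8 dendritic cell markers 2 fell, with sums of 1.60 to 2.10 FPKM in extract libraries and 2.73 to 3.84 FPKM in control libraries. Of 9 endothelial markers 6 fell, with sums of 42.2 to 45.5 FPKM in extract libraries and 56.2 to 62.2 FPKM in control libraries. The monocyte marker Ccr2, named after its values were seen, did not pass but was above every control library in each extract library, with 0.548, 0.587 and 0.555 FPKM in extract libraries, against 0.373, 0.470 and 0.457 FPKM in control libraries (edgeR adjusted p = 0.0593). No marker of these lists was called higher, and none was at 0 in every library, though Prf1 was at 0 in extract 1 and Cd209a in extract 3.

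Hepatocyte markers gave a mixed picture, with 5 of 10 higher and 3 lower, against 14.2% higher and 12.8% lower of all genes tested. Their sums were 39819 to 40421 FPKM in extract libraries and 39511 to 48506 FPKM in control libraries. Alb made up most of each sum (mean 26017 FPKM in extract and 29910 FPKM in control) and was not called. Control 3 had the lowest sum of monocyte and neutrophil markers and of B and plasma cell markers among the controls (88.9 and 87.2 FPKM). The same held for Kupffer cell (508 FPKM), T and NK cell (8.71 FPKM) and hepatocyte markers (39511 FPKM). For dendritic cell and endothelial markers control 3 had the highest sum among the controls (3.84 and 62.2 FPKM). Control 3 was also the lowest control for most members, as given above. The part of cell composition in the members' values, Cxcl10 included, was not tested.

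**Figure D5:**
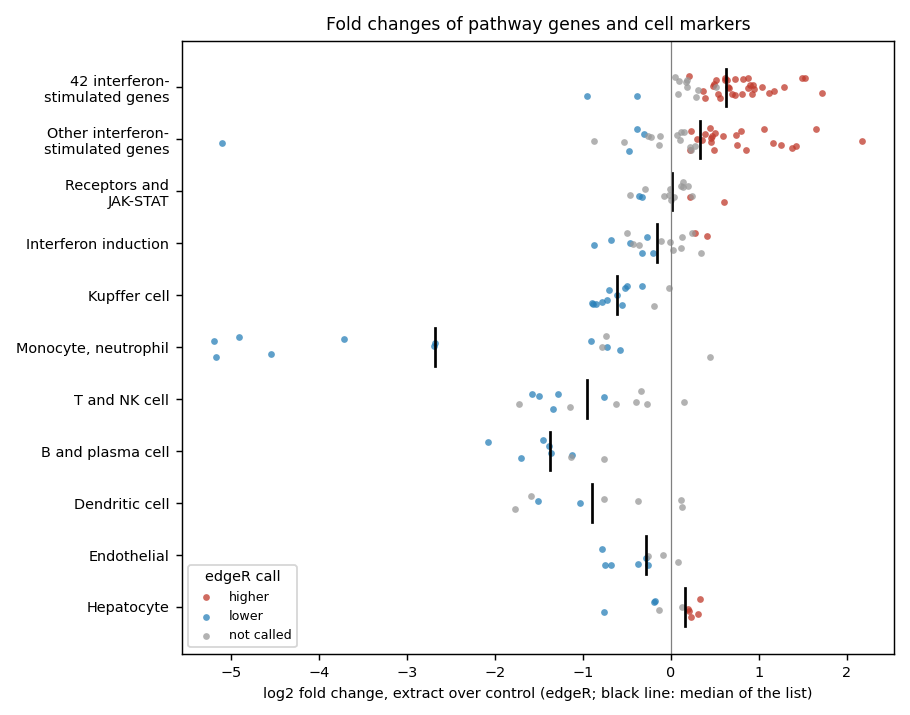
Log2 fold change, extract over control (edgeR), of the 42 genes, of further genes of the pathway and of cell type markers, 1 point per gene tested and a black line at the median of each list. The 42 genes have a median of 0.63 and other interferon-stimulated genes 0.33, while the medians of Kupffer cell (-0.62) and monocyte and neutrophil markers (-2.68) lie to the left of 0.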

How the data were processed

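Oligo(dT)-selected liver RNA of 6 libraries was analysed, 3 per group. Tools listed in the submitters' processing notes, without roles, are StringTie 1.3.4d, HISAT2 2.0.4, cutadapt 1.9 and edgeR. Use of strand, genome build and annotation are not given in the sources used here. Per the file headers, the deposited table holds estimated counts, which are whole numbers, and FPKM, which the authors scaled by gene length and mapped fragments. Low counts peak at 4 (6292 entries, against 4117 at 3 and 2133 at 5), and whether a read pair adds several counts is not stated. Another 6 columns of per-sample values match no sample and were not used. Columns were matched to groups by the code in the sample titles.

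The test of each gene was that of edgeR 4.0.16 under R 4.3.3 (filterByExpr, TMM factors, quasi-likelihood test, two-sided, Benjamini-Hochberg over 18071 genes, threshold 0.05). The SE was derived from the F statistic. The edgeR, DESeq2 and limma steps were tested on simulated counts (limma there on log2 CPM). Alternatives were limma 3.58.1 on log2(FPKM + 0.5) or log2(FPKM + 0.1), with a mean of at least 0.5 FPKM or no filter and with TMM scaling, DESeq2 1.42.0, edgeR with other size factors, no filter, a replicate block or counts divided by 4, and each library left out.

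The members, lists and tests were chosen with earlier results of these data known. Values in every library are given for the largest and smallest fold change per role, for members that fell and for the 10 smallest p-values, and for a few more. Of the pathway lists, the genes with the smallest p are named, up to 4 per list, except 1 gene that is counted in its list but not reported here. Promoters are from RefSeq. Shared sequence was counted as 50-base stretches of GENCODE M21 transcripts that also occur in another gene.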

Additional observations from a re-analysis of the deposited data

How the results depend on the processing

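Of 630 member results under 15 alternatives, 594 kept their direction and their side of the threshold, and 34 of the 42 members did so under all of them. A call was lost 30 times (Oasl1, Ifi27l2a, Irf9, Oasl2, Mx1 and Adar) and gained 3 times (Cmpk2), and the cause was not tested. Adar lost its call with limma on log2(FPKM + 0.5) without the filter on low values (adjusted p = 0.0615, range 5.95e-05 to 0.0615). Stat2, not called, changed sign to -0.0213 with limma on log2(FPKM + 0.5), with and without the filter, and to -0.0217 with log2(FPKM + 0.1). Between 26 and 32 members were called higher and 2 lower under the alternatives that kept all libraries, and 27 to 31 higher and 2 lower when a library was left out. The median log2 fold change was 0.51 with limma on log2(FPKM + 0.5), with and without the filter, 0.55 with TMM scaling, and 0.60 to 0.67 when a library was left out. The larger pseudocount lowers it by construction. Over all genes, 2561 were called higher and 2309 lower. The higher calls numbered 1661 with limma on log2(FPKM + 0.5) without the filter and 1776 to 2553 when a library was left out, and the lower calls then 1442 to 2153. The lower calls moved most without control 2, extract 2 or extract 1 (1442, 1461 and 1480). Of all calls 52.6% were higher, against 40.3% with limma on FPKM as deposited and 51.1% after TMM scaling. Libraries with the same replicate number showed no shared deviation from their group means (correlations -0.117, -0.028 and -0.089). Such correlations cannot show whether the libraries were collected or handled in pairs. With the replicate block, 29 members were called higher and 2 lower, Oasl1 and Ifi27l2a being lost. The estimated counts limit what can be said of genes with a few counts, such as Ifi44l and Ifng.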
